A study of Mus musculus with 15 samples.

Results

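The genes described are 39 amino acid and peptide carriers of the solute carrier (SLC) families 1, 3, 6, 7, 15, 16, 36, 38 and 43, chosen by gene symbol from the 32939 genes of the table, and all 39 had a row. The RNA came from colonic crypts of mice, in 15 libraries, 5 in each of 3 groups. The FL-shAlpl mice had a fatty liver on the CDAA diet and received an adeno-associated virus (AAV) with a short hairpin RNA (shRNA) against Alpl, the gene of tissue-nonspecific alkaline phosphatase. The FL-shGFP mice had the same diet and liver condition and an AAV with an shRNA against GFP, and the NL-shGFP mice had the normal diet, a normal liver and the same GFP control. All mice were labelled wild type and all carried an AAV shRNA. The promoter and serotype of the virus, the age and sex of the mice and the duration of the diet are not stated in the labels. CDAA is the usual name for a choline-deficient, amino acid-defined diet, which supplies free amino acids in place of protein. Diet and liver condition changed together, so their parts in a difference between FL-shGFP and NL-shGFP cannot be told apart, and there was no group with shAlpl and a normal liver.

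Absorptive cells take up amino acids and small peptides at the apical (luminal) membrane with carriers driven by sodium, protons or exchange, and release amino acids to the blood through basolateral carriers, several of which are pairs of a transporting light chain and a glycoprotein heavy chain. Lysosomal carriers return the products of protein breakdown to the cytosol and take part in amino acid sensing by the kinase complex mTORC1. Most bulk absorption takes place in the small intestine; in the colon several of these carriers are better known for scavenging amino acids, for uptake of taurine and glutamine, and for the supply of dividing cells. The 39 genes were grouped by the membrane where the protein is best known: 10 apical, 10 basolateral, 5 sodium-coupled SLC38 carriers of the plasma membrane, 6 lysosomal, and 8 of other or unfixed site.

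Library totals were 42071168 to 58590251 counts in FL-shAlpl, 37490405 to 51669018 in FL-shGFP and 33272941 to 41352922 in NL-shGFP, and mitochondrially encoded genes took 14.8% to 24.3%, 13.7% to 21.5% and 27.99% to 37.5% of them in the same order of groups. Counts of the targeted gene Alpl were 6, 2, 2, 2 and 0 in the FL-shAlpl libraries, 15, 14, 18, 25 and 23 in FL-shGFP and 0, 2, 0, 0 and 0 in NL-shGFP; liver Alpl was not analysed here. Markers of crypt epithelium were present: all 14 colonocyte markers were above 0 in every library, and of 12 stem cell markers only 1 in FL-shGFP replicate 2 and 2 in FL-shGFP replicate 4 were at 0. Summed colonocyte markers ran from 9167 to 17624 CPM in FL-shAlpl, 15589.6 to 40455 in FL-shGFP and 5899 to 14448 in NL-shGFP. Summed stem cell markers ran from 181 to 344, 102 to 165 and 313 to 432 CPM, T and NK cell markers from 15.7 to 32.9, 101 to 277 and 19.8 to 73.4 CPM, and myeloid markers from 165 to 505, 477 to 1215 and 201 to 491 CPM in the same order. No T and NK cell or myeloid marker was at 0 in any library; of 14 T and NK cell markers 13 were higher and 0 lower in FL-shGFP over NL-shGFP, and 0 higher and 14 lower in FL-shAlpl over FL-shGFP. Summed markers of other kinds ran, in FL-shAlpl, FL-shGFP and NL-shGFP, from 524 to 1919, 159.9 to 902 and 974 to 1379 CPM for proliferation, 15.99 to 131, 101 to 379 and 6.23 to 21.9 CPM for B and plasma cells, and 21.5 to 311, 75.7 to 373 and 12.4 to 60.1 CPM for fibroblasts. Of 8 B and plasma cell markers, 6 were tested, 3 higher and 0 lower in FL-shGFP over NL-shGFP and 0 higher and 1 lower in FL-shAlpl over FL-shGFP; of 8 fibroblast markers, 8 were tested, 4 higher and 0 lower in FL-shGFP over NL-shGFP and 0 higher and 1 lower in FL-shAlpl over FL-shGFP. Of 8 muscle and vessel markers, summing to 6.60 to 10.1, 10.6 to 27.2 and 5.88 to 6.94 CPM in that order of groups, 8 were tested, 6 higher and 0 lower in FL-shGFP over NL-shGFP and 0 higher and 4 lower in FL-shAlpl over FL-shGFP. No proliferation or fibroblast marker was at 0, and up to 2 of 8 B and plasma cell markers were. The part of cell makeup in the values of the carriers was not tested. By their counts, NL-shGFP replicates 1 and 2, and replicates 3 and 4, were more alike than any other pairs of that group, and each such pair was also summed as an alternative. In bulk RNA, fewer cells of a type and less RNA per cell cannot be told apart.

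Apical carriers were mostly higher in the colonic crypts of FL-shGFP than of NL-shGFP mice, by up to 22.6-fold for the cystine carrier Slc7a9, while basolateral carriers moved in both directions. In FL-shGFP over NL-shGFP, 24 of the 39 genes were called in edgeR's quasi-likelihood test at an adjusted p below 0.05, 17 higher and 7 lower, where 36 passed the filter on low counts and 3 were not tested. Of the 36 tested that is 66.7%, 47.2% higher and 19.4% lower, against 46.7% of the 17404 genes tested, 25.1% higher and 21.6% lower. Of the 10 apical carriers, 8 were higher, 1 was lower and 1 was not called; of the 10 basolateral carriers, 3 were higher and 4 lower; of the 6 lysosomal carriers, 1 was higher and 1 lower; of the 8 others, 4 were higher and 1 lower; and 1 SLC38 carrier of the plasma membrane was higher. The median log2 fold change was 2.36 for the apical, -0.13 for the basolateral and 0.024 for the lysosomal carriers, against -0.0016 for all genes tested. The 5 FL-shGFP libraries lay above every NL-shGFP library for 15 carriers and below for 7, against 18.1% and 16.2% of all genes, 34.2% in either direction.

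In FL-shAlpl over FL-shGFP, 15 of the 36 tested carriers were called by edgeR at an adjusted p below 0.05, 1 higher and 14 lower. That is 41.7%, 2.78% higher and 38.9% lower, against 36% of all genes tested, 18% higher and 17.9% lower. The lower carriers were 5 apical, 2 basolateral, 1 SLC38 carrier of the plasma membrane, 3 lysosomal and 3 others, and the higher one was the basolateral Slc7a1. The median was -0.58 for apical, 0.14 for basolateral and -0.54 for lysosomal carriers, against -0.0037 for all genes tested. No carrier had all 5 FL-shAlpl libraries above every FL-shGFP library, and 9 had them all below, against 7.63% and 9.29% of all genes, 16.9% in either direction. FL-shGFP is in both comparisons, so a high or low FL-shGFP value enters them with opposite signs, and the values are given side by side.

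**Figure D1:**
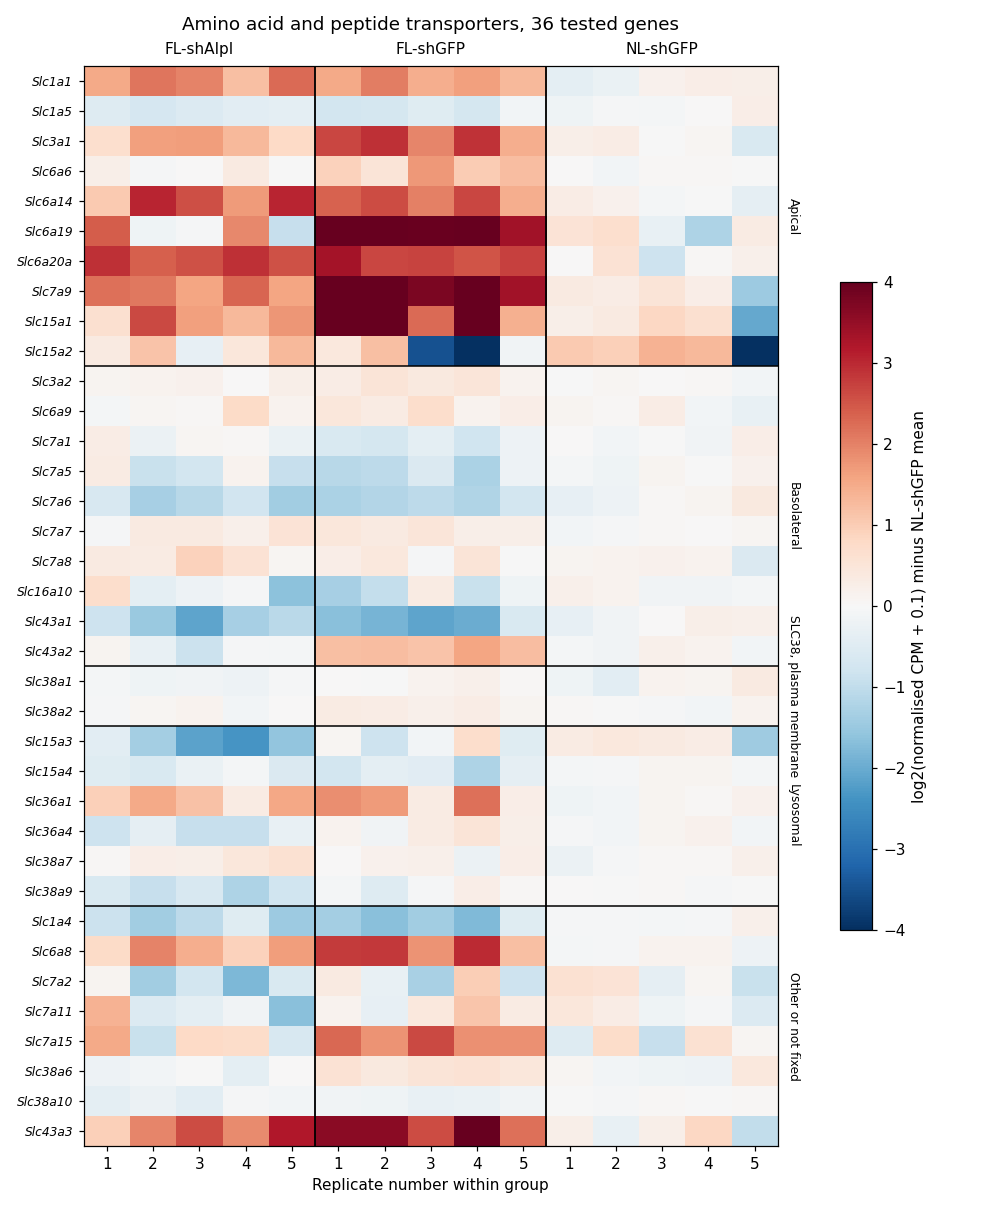
Level of the 36 tested carriers in each library, as log2(normalised CPM + 0.1) minus the NL-shGFP mean of that gene, with genes in rows by role and the 5 libraries of FL-shAlpl, FL-shGFP and NL-shGFP in columns. The apical block is red across FL-shGFP for most genes, while basolateral and lysosomal rows stay closer to white.

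Summed over the 10 apical carriers, normalised CPM (read counts relative to a library size that edgeR's trimmed mean of M values adjusts) ran from 704 to 1680.5 in FL-shAlpl, 1049 to 1747 in FL-shGFP and 501 to 545 in NL-shGFP. The NL-shGFP libraries lay in a narrow band below all others, and the other groups overlapped. Slc6a14 averaged 862 CPM of a mean sum of 1257.5 in FL-shAlpl, 757 of 1486.5 in FL-shGFP and 157 of 527.5 in NL-shGFP. The sum in the fatty liver groups thus depends largely on Slc6a14 and does not describe the apical carriers as a class. By edgeR, 5 of the 10 were lower, 0 higher and 5 not called in FL-shAlpl over FL-shGFP. The 10 basolateral carriers summed to 207 to 247, 224 to 245 and 223 to 248 CPM in the same order, which overlapped throughout.

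The pair of Slc7a9 and Slc3a1 forms the exchanger b0,+ of the brush border, in which the light chain b0,+AT (Slc7a9) moves cystine and cationic amino acids and rBAT (Slc3a1) is its heavy chain. Slc7a9 had 10.9, 10.01, 6.91, 11.7 and 6.97 CPM in FL-shAlpl, 79.8, 79.9, 32.3, 67.2 and 24.4 CPM in FL-shGFP and 2.91, 2.79, 3.30, 2.75 and 0.768 CPM in NL-shGFP. The 3 groups did not overlap, and FL-shGFP replicates 3 and 5 were the lowest of their group. Its log2 fold change (± standard error) was 4.50 ± 0.41 in FL-shGFP over NL-shGFP (adjusted p by edgeR = 6.08e-06), the largest of the 36 tested carriers in that comparison, and -2.61 ± 0.37 in FL-shAlpl over FL-shGFP (adjusted p by edgeR = 2.80e-04). Slc3a1 had 18.5, 35.7, 36.7, 28.6 and 20.2 CPM in FL-shAlpl, 73.1, 88.5, 44.7, 86.3 and 31.7 CPM in FL-shGFP and 13.6, 14.2, 11.4, 12.1 and 7.42 CPM in NL-shGFP. Every FL-shGFP and FL-shAlpl library lay above every NL-shGFP library, and FL-shGFP replicate 5 fell within the FL-shAlpl range. It was higher by 2.46 ± 0.30 in FL-shGFP over NL-shGFP (adjusted p by edgeR = 3.51e-05) and fell in FL-shAlpl over FL-shGFP (-1.21 ± 0.28, adjusted p by edgeR = 0.00520). By the GENCODE vM21 annotation, 26.5% of the Slc3a1 exon length overlaps Prepl on the other strand, and the strand setting of the counts is not stated in the labels. Prepl itself averaged 35.6 ± 1.77 CPM in FL-shAlpl, 29.9 ± 3.10 in FL-shGFP and 32.7 ± 5.75 in NL-shGFP (SD, n = 5).

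The 120 bases before the RefSeq transcription start are shown for 3 apical carriers that were higher in FL-shGFP, so that the letters searched can be seen, from RefSeq on GRCm38.p6, 5′ to 3′ on the strand of the gene. They lie at chr17:85028227-85028346 (plus strand) for Slc3a1, chr14:121505255-121505374 (minus strand) for Slc15a1 and chrX:21714780-21714899 (plus strand) for Slc6a14. Capitals mark CAAAGTCCA, a form of the site of HNF4A, a transcription factor of the gut epithelium.
Slc3a1: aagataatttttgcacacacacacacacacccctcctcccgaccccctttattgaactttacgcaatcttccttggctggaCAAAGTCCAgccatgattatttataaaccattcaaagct
Slc15a1: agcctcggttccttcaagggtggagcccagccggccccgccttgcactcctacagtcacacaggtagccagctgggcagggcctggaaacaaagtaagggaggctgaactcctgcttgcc
Slc6a14: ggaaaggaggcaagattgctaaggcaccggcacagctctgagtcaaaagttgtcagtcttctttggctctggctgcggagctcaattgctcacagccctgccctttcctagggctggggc
Searched on both strands in windows of 250 bases before to 50 after the start, CAAAGTCCA was in 0.475% of 32851 RefSeq windows and in 1 of the 43 windows matched to 30 of the 39 carriers, that of Slc3a1. The motif of HNF1, searched as its strict palindrome, was in 3 of all windows, or 0.00913%, and in 0 of the 43. It is too rare in that form for its absence to say anything about the carriers. A match of letters is a description of the sequence and no measure of binding.

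Slc6a19 encodes B0AT1, the sodium-coupled carrier of neutral amino acids of the brush border. Slc6a19 had 5.44, 0.814, 0.911, 3.85 and 0.445 CPM in FL-shAlpl, 22.5, 18.5, 15.98, 18.7 and 10.6 CPM in FL-shGFP and 1.41, 1.55, 0.752, 0.344 and 1.19 CPM in NL-shGFP. All FL-shGFP libraries lay above every library of the other groups, which overlapped each other. Its log2 fold change was 4.03 ± 0.63 in FL-shGFP over NL-shGFP (adjusted p by edgeR = 2.10e-04) and -2.90 ± 0.59 in FL-shAlpl over FL-shGFP (adjusted p by edgeR = 0.00230). The fall was -3.51 without FL-shAlpl replicate 1, the highest library of that group. Summed small-intestine markers were 908 CPM in that library, against 151 to 229 in the other 4 of FL-shAlpl. The lowest sum, 151 CPM, was in replicate 4, which had 3.85 CPM of Slc6a19. The marker sums were 155 to 256 CPM in FL-shGFP and 149.7 to 326 in NL-shGFP. Of 12 such markers 7 were tested, 3 higher and 1 lower in FL-shGFP over NL-shGFP. In FL-shAlpl over FL-shGFP, 3 were higher and 3 lower. Their part in the Slc6a19 values was not tested. In FL-shAlpl over NL-shGFP Slc6a19 was 1.13 ± 0.59 and did not pass (adjusted p by edgeR = 0.203, 95% interval -0.12 to 2.38). Cltrn, which encodes collectrin, the partner of this carrier in the kidney, had 2 counts over the 5 FL-shAlpl libraries, 4 in FL-shGFP and 0 in NL-shGFP.

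Slc15a1 encodes PEPT1, the proton-coupled carrier of dipeptides and tripeptides. Slc15a1 had 10.95, 44.05, 21.6, 17.3 and 23.6 CPM in FL-shAlpl, 174, 173, 33.3, 158 and 18.8 CPM in FL-shGFP and 8.10, 8.95, 12.3, 10.8 and 1.59 CPM in NL-shGFP. FL-shGFP split into 3 libraries far above the rest and 2, replicates 3 and 5, within the FL-shAlpl range, and NL-shGFP replicate 5 was the lowest of all 15. All FL-shGFP libraries still lay above every NL-shGFP library. The rise in FL-shGFP over NL-shGFP was 3.74 ± 0.66 (adjusted p by edgeR = 5.10e-04) and the fall in FL-shAlpl over FL-shGFP -2.24 ± 0.62 (adjusted p by edgeR = 0.0121). In FL-shAlpl over NL-shGFP the value of 1.49 ± 0.61 did not pass (adjusted p by edgeR = 0.105). The gene of the second peptide carrier of this membrane, Slc15a2 (PEPT2, best known from kidney), averaged 9.01 ± 3.91 CPM in FL-shAlpl, 5.13 ± 5.23 in FL-shGFP and 10.1 ± 5.82 in NL-shGFP (SD, n = 5). Its libraries fell far apart within groups, with 2 FL-shGFP libraries and 1 NL-shGFP library below 1 CPM, and the 95% interval in FL-shGFP over NL-shGFP was -2.92 to 0.97 (adjusted p by edgeR = 0.396).

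Slc6a14, Slc6a20a and Slc1a1 were higher in both fatty liver groups over NL-shGFP and were not called between the fatty liver groups. Slc6a14 encodes ATB0,+, a sodium- and chloride-coupled carrier of neutral and cationic amino acids known from colon and lung. Slc6a14 had 324, 1272, 925, 506 and 1285 CPM in FL-shAlpl, 790.1, 955, 627, 983 and 429.9 CPM in FL-shGFP and 191, 175, 146, 155 and 120.1 CPM in NL-shGFP. All libraries of both fatty liver groups lay above every NL-shGFP library, and those groups overlapped, with FL-shAlpl the more spread. The rise was 2.27 ± 0.34 in FL-shGFP over NL-shGFP (adjusted p by edgeR = 1.58e-04) and 2.45 ± 0.34 in FL-shAlpl over NL-shGFP (adjusted p by edgeR = 3.54e-04). FL-shAlpl over FL-shGFP gave 0.19 ± 0.33 (95% interval -0.51 to 0.88, adjusted p by edgeR = 0.682), which leaves room for a difference either way.

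Slc6a20a encodes a sodium-coupled carrier of proline and other imino acids. Its values were 4.68, 3.26, 3.59, 4.77 and 3.59 CPM in FL-shAlpl, 6.31, 3.95, 4.01, 3.51 and 4.14 CPM in FL-shGFP and 0.540, 0.848, 0.262, 0.556 and 0.626 CPM in NL-shGFP. NL-shGFP lay below both other groups in every library. The log2 fold changes were 2.94 ± 0.27 in FL-shGFP over NL-shGFP and 2.80 ± 0.27 in FL-shAlpl over NL-shGFP (adjusted p by edgeR = 4.82e-06 and 3.04e-05), and -0.14 ± 0.24 in FL-shAlpl over FL-shGFP (95% interval -0.66 to 0.37, adjusted p by edgeR = 0.676). Of its exon length 14.3% overlaps genes on the other strand, mainly the chemokine receptor gene Ccr9, at 0.759 CPM in FL-shAlpl, 2.25 in FL-shGFP and 0.627 in NL-shGFP on average, and reads may be shared with the near copy Slc6a20b. Slc1a1 (EAAT3, the carrier of glutamate and aspartate) averaged 35.9 ± 10.5 CPM in FL-shAlpl, 29.9 ± 6.28 in FL-shGFP and 9.87 ± 2.03 in NL-shGFP (SD, n = 5), with no overlap of NL-shGFP with either other group. It rose by 1.60 ± 0.21 in FL-shGFP and by 1.86 ± 0.21 in FL-shAlpl, each over NL-shGFP (adjusted p by edgeR = 5.34e-05 and 8.63e-05). Its overlap with 4430402I18Rik on the other strand covers 31.9% of its exon length, and that gene was below 1 CPM in every library.

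The last apical carriers went apart. Slc6a6, the taurine carrier, ran from 138 to 183 CPM in FL-shAlpl, 202 to 474 in FL-shGFP and 133 to 147 in NL-shGFP; all FL-shGFP libraries lay above all others, with replicate 3 highest. It was higher by 1.14 ± 0.17 in FL-shGFP over NL-shGFP (adjusted p by edgeR = 1.35e-04), lower in FL-shAlpl over FL-shGFP (-1.02 ± 0.17, adjusted p by edgeR = 6.48e-04), and 0.12 ± 0.17 in FL-shAlpl over NL-shGFP (95% interval -0.24 to 0.48, adjusted p by edgeR = 0.681). Slc1a5 (ASCT2), the exchanger of glutamine and other neutral amino acids, was the 1 apical gene that was lower. It ran from 114 to 139 CPM in FL-shAlpl, 110.2 to 168 in FL-shGFP and 164 to 218 in NL-shGFP, with FL-shGFP replicate 5 inside the NL-shGFP range. The change was -0.54 ± 0.12 in FL-shGFP over NL-shGFP (adjusted p by edgeR = 0.00255) and 0.025 ± 0.12 in FL-shAlpl over FL-shGFP (95% interval -0.23 to 0.28, adjusted p by edgeR = 0.893).

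**Figure D2:**
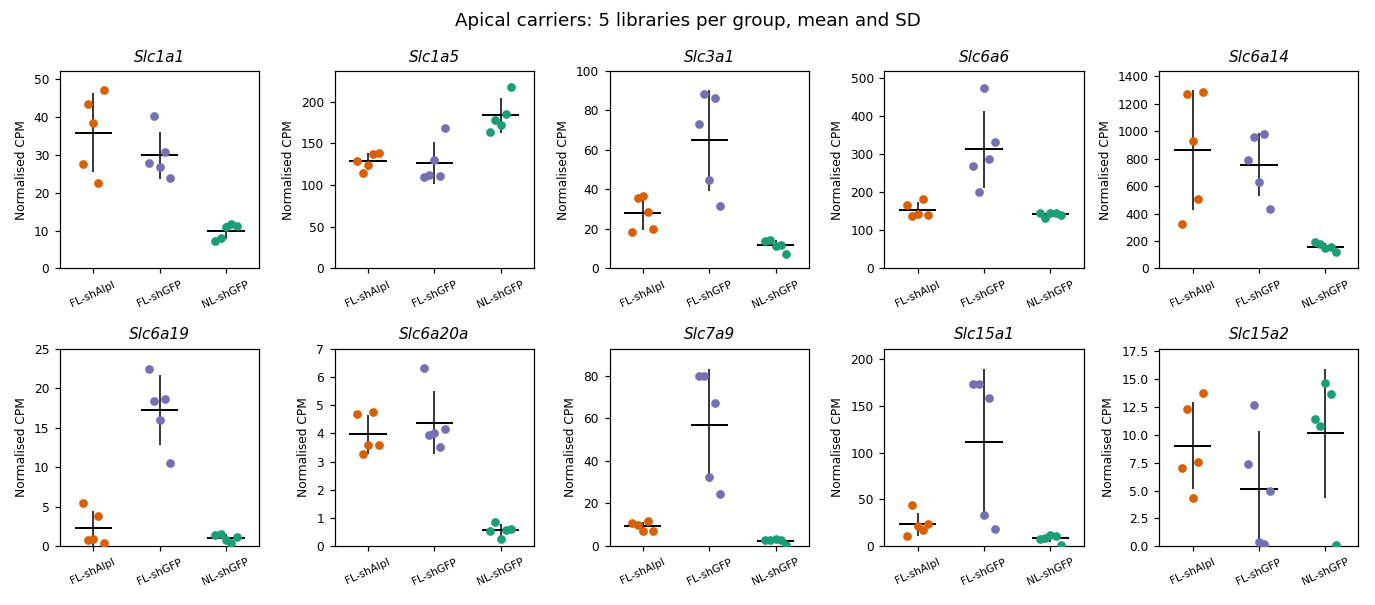
Normalised CPM of the 10 apical carriers, 1 panel per gene, with each library as a point, the group mean as a bar and the SD as a line, for FL-shAlpl, FL-shGFP and NL-shGFP (5 libraries each). FL-shGFP stands above both other groups for Slc6a6, Slc6a19 and Slc7a9, while both fatty liver groups stand above NL-shGFP for Slc1a1, Slc6a14 and Slc6a20a.

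Within FL-shGFP, replicates 3 and 5 were the 2 lowest libraries for 12 of the 36 tested carriers, among them 6 apical ones (Slc1a1, Slc3a1, Slc6a14, Slc6a19, Slc7a9 and Slc15a1). Such pairs were not particular to FL-shGFP. In FL-shAlpl, replicates 2 and 5 were the lowest pair for 11 carriers, and replicates 1 and 4 for 10. Among NL-shGFP pairs the most was 8, for replicates 1 and 2. The share over all genes was not counted. Without FL-shGFP replicate 3 or without replicate 5, 17 carriers were higher and 7 lower in FL-shGFP over NL-shGFP by edgeR. In FL-shAlpl over FL-shGFP, 1 was higher and 13 lower without replicate 3, and 3 were higher and 15 lower without replicate 5. The summed colonocyte markers of these libraries were 24546 and 15589.6 CPM, against 32536, 35318 and 40455 CPM in replicates 1, 2 and 4. Between groups, 10 of the 14 colonocyte markers were higher and 0 lower in FL-shGFP over NL-shGFP, and 0 were higher and 8 lower in FL-shAlpl over FL-shGFP. Of 12 stem cell markers, 0 were higher and 11 lower in FL-shGFP over NL-shGFP, and 10 higher and 0 lower in FL-shAlpl over FL-shGFP. The share of these cell types in the differences between carriers was not tested.

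Basolateral carriers moved both ways and by less. The carriers LAT3 (Slc43a1) and LAT4 (Slc43a2), which let branched-chain and aromatic amino acids pass down their gradient, went opposite ways in FL-shGFP over NL-shGFP. Slc43a2 had 11.99, 9.20, 6.09, 10.8 and 10.7 CPM in FL-shAlpl, 26.2, 26.5, 24.7, 33.5 and 26.6 CPM in FL-shGFP and 10.7, 10.2, 12.9, 12.3 and 10.3 CPM in NL-shGFP. All FL-shGFP libraries were above all others, and the other groups overlapped. The log2 fold change was 1.29 ± 0.16 in FL-shGFP over NL-shGFP (adjusted p by edgeR = 3.32e-05), -1.50 ± 0.16 in FL-shAlpl over FL-shGFP (adjusted p by edgeR = 4.41e-05) and -0.21 ± 0.16 in FL-shAlpl over NL-shGFP (95% interval -0.54 to 0.12, adjusted p by edgeR = 0.395). Slc43a1 had 4.66, 2.89, 1.84, 3.23 and 3.91 CPM in FL-shAlpl, 2.56, 2.23, 1.87, 2.05 and 5.41 CPM in FL-shGFP and 6.60, 7.55, 8.44, 9.90 and 9.67 CPM in NL-shGFP. All NL-shGFP libraries were above all others, and FL-shGFP replicate 5 stood above its group. Its values were -1.57 ± 0.30 in FL-shGFP over NL-shGFP and -1.35 ± 0.30 in FL-shAlpl over NL-shGFP (adjusted p by edgeR = 7.45e-04 and 0.00613), and 0.22 ± 0.29 between the fatty liver groups (adjusted p by edgeR = 0.579).

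The genes of 3 light chains or single carriers that supply cationic and large neutral amino acids were lower in FL-shGFP. Slc7a6 (y+LAT2, which exchanges cationic for neutral amino acids) had 17.2, 10.6, 12.2, 15.6 and 10.2 CPM in FL-shAlpl, 11.1, 11.8, 12.9, 11.4 and 16.1 CPM in FL-shGFP and 21.4, 23.04, 27.8, 28.5 and 34.7 CPM in NL-shGFP. Both fatty liver groups lay below every NL-shGFP library. It fell by 1.10 ± 0.17 on the log2 scale in FL-shGFP over NL-shGFP and by 1.04 ± 0.17 in FL-shAlpl over NL-shGFP (adjusted p by edgeR = 2.00e-04 and 0.00106). Slc7a5 (LAT1, the carrier of large neutral amino acids of dividing cells) had 27.4, 11.7, 12.98, 23.6 and 11.4 CPM in FL-shAlpl, 9.93, 10.5, 14.5, 8.99 and 18.9 CPM in FL-shGFP and 20.4, 19.1, 23.4, 21.3 and 24.3 CPM in NL-shGFP. All FL-shGFP libraries were below every NL-shGFP library, and FL-shAlpl spread over both ranges. The fall of 0.79 ± 0.26 in FL-shGFP over NL-shGFP (adjusted p by edgeR = 0.0215) did not pass without FL-shGFP replicate 1 or without FL-shGFP replicate 4 (adjusted p by edgeR = 0.0544 and 0.0548). Of 12 proliferation markers, 0 were higher and 6 lower in that comparison, and 6 higher and 0 lower in FL-shAlpl over FL-shGFP; their part in the Slc7a5 values was not tested. In FL-shAlpl over FL-shGFP Slc7a5 was 0.47 ± 0.26 and not called (adjusted p by edgeR = 0.165), and 0.67 without FL-shGFP replicate 5 (adjusted p by edgeR = 0.0468).

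Slc7a1 (CAT1), the uptake carrier of arginine and lysine, was the 1 carrier called higher in FL-shAlpl over FL-shGFP. Its levels were 64.7, 44.2, 55.2, 54.1 and 43.7 CPM in FL-shAlpl, 34.6, 32.4, 40.2, 30.3 and 45.1 CPM in FL-shGFP and 52.4, 48.4, 52.2, 47.4 and 62.2 CPM in NL-shGFP. FL-shGFP lay below every NL-shGFP library, and FL-shGFP replicate 5 overlapped FL-shAlpl. The log2 fold change was 0.52 ± 0.13 in FL-shAlpl over FL-shGFP (adjusted p by edgeR = 0.00714) and -0.52 ± 0.13 in FL-shGFP over NL-shGFP (adjusted p by edgeR = 0.00454; 0.0530 with libraries scaled by totals alone). FL-shAlpl and NL-shGFP means were 52.4 and 52.5 CPM, with a 95% interval of -0.28 to 0.27 for their log2 fold change.

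Slc3a2, the heavy chain 4F2hc that LAT1, LAT2 and both y+LAT proteins need, had the highest mean FPKM of the basolateral carriers. Its libraries read 60.9, 61.8, 64.4, 56.9 and 66.5 CPM in FL-shAlpl, 70.2, 81.2, 73.3, 78.8 and 62.5 CPM in FL-shGFP and 56.5, 59.4, 56.8, 58.1 and 52.1 CPM in NL-shGFP. FL-shGFP lay above NL-shGFP in every library, and its replicate 5 overlapped FL-shAlpl. It was higher by 0.37 ± 0.081 in FL-shGFP over NL-shGFP (adjusted p by edgeR = 0.00199). The small fall in FL-shAlpl over FL-shGFP (-0.24 ± 0.081, adjusted p by edgeR = 0.0329) was lost in 12 of 28 alternative analyses, among them those without FL-shGFP replicate 2, 3 or 4 (adjusted p by edgeR = 0.0843, 0.0547 and 0.0818) or without FL-shAlpl replicate 1 or 4 (adjusted p by edgeR = 0.0630 and 0.0803). Slc7a7 (y+LAT1, the basolateral exit of cationic amino acids) averaged 46.03 ± 6.79 CPM in FL-shAlpl, 48.1 ± 3.80 in FL-shGFP and 37.6 ± 2.06 in NL-shGFP (SD, n = 5) and was higher by 0.36 ± 0.10 in FL-shGFP over NL-shGFP (adjusted p by edgeR = 0.00894; 0.0525 with the most alike NL-shGFP libraries summed). Its value in FL-shAlpl over FL-shGFP was -0.065 ± 0.10 (adjusted p by edgeR = 0.638).

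Slc7a8 (LAT2, exchanger of neutral amino acids), Slc16a10 (TAT1, carrier of aromatic amino acids) and Slc6a9 (GLYT1, the glycine carrier) were called in none of the 3 comparisons by edgeR. Slc7a8 averaged 7.24 ± 1.65 CPM in FL-shAlpl, 6.14 ± 1.09 in FL-shGFP and 5.27 ± 1.04 in NL-shGFP. Slc16a10 averaged 5.73 ± 2.98 CPM in FL-shAlpl, 4.52 ± 2.26 in FL-shGFP and 6.31 ± 0.735 in NL-shGFP, and its FL-shAlpl libraries ran from 1.95 to 10.2 CPM. Slc6a9 averaged 8.16 ± 2.19 CPM in FL-shAlpl, 9.17 ± 1.46 in FL-shGFP and 7.03 ± 1.10 in NL-shGFP (SD, n = 5 in each case), of whose exon length 30.2% overlaps genes on the other strand. At an unadjusted p these 3 genes gave 2 values below 0.05 in the 9 comparisons.

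**Figure D3:**
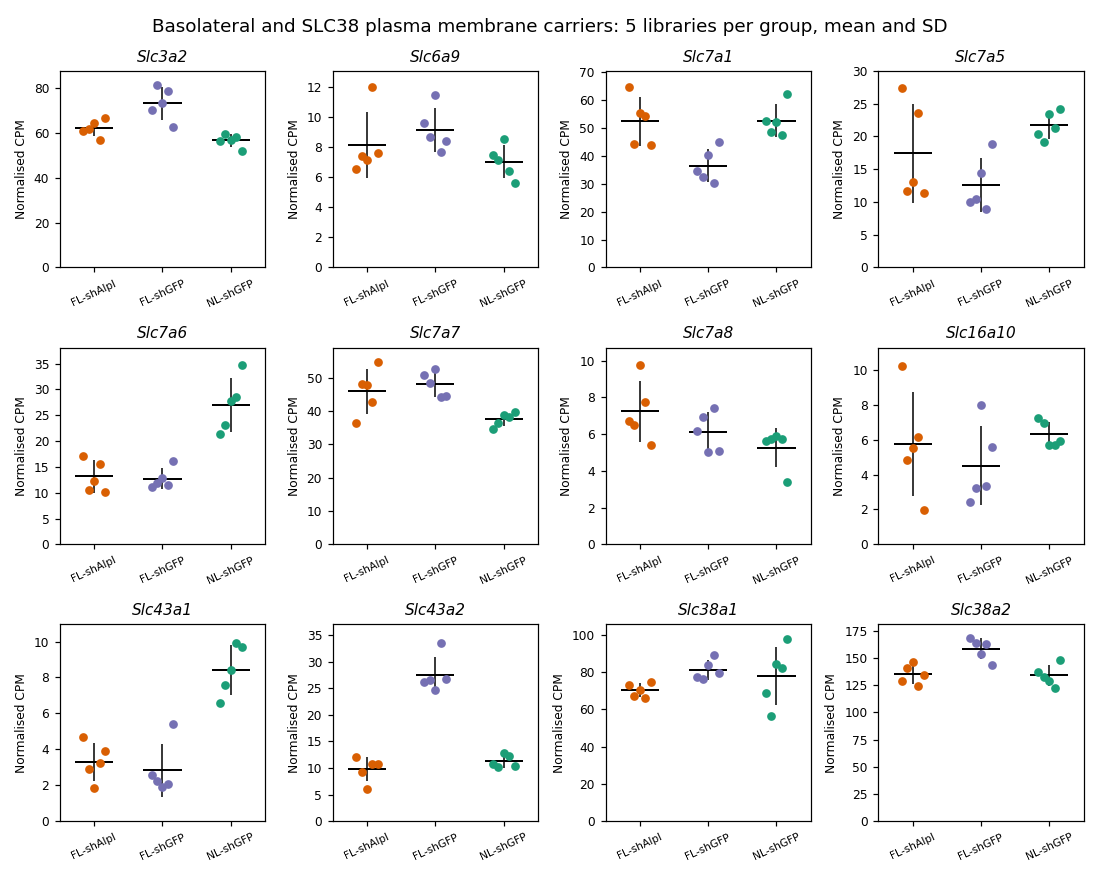
Normalised CPM of the 10 basolateral carriers and of Slc38a1 and Slc38a2, with each library as a point, the group mean as a bar and the SD as a line (5 libraries per group, FL-shAlpl, FL-shGFP and NL-shGFP from left to right). FL-shGFP stands alone above for Slc43a2, and NL-shGFP alone above for Slc7a6 and Slc43a1.

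Of the SLC38 carriers of the plasma membrane, Slc38a2 (SNAT2, known to rise on amino acid shortage) had 129, 141, 147, 125 and 135 CPM in FL-shAlpl, 168, 164, 154, 163 and 144 CPM in FL-shGFP and 137, 133, 129, 123 and 148 CPM in NL-shGFP. Most FL-shGFP libraries were above the others, with replicate 5 inside the NL-shGFP and FL-shAlpl ranges. The changes were small, 0.24 ± 0.081 in FL-shGFP over NL-shGFP and -0.23 ± 0.081 in FL-shAlpl over FL-shGFP (adjusted p by edgeR = 0.0226 and 0.0365), and were lost in 5 and 16 of 28 alternatives, which include leaving out any 1 of FL-shGFP replicate 1 and NL-shGFP replicates 3 and 4 for the first, and any 1 of FL-shAlpl replicates 1, 4 and 5, FL-shGFP replicates 1 to 4 and NL-shGFP replicates 1 and 3 for the second. Slc38a1 (SNAT1, a like carrier of small neutral amino acids) averaged 70.3 ± 3.67 CPM in FL-shAlpl, 81.3 ± 5.31 in FL-shGFP and 78.01 ± 15.7 in NL-shGFP (SD, n = 5) and was not called, although every FL-shAlpl library lay below every FL-shGFP library (-0.21 ± 0.12, adjusted p by edgeR = 0.172). Slc38a3, Slc38a4 and Slc38a5, best known from other organs such as liver and brain, had 19, 28 and 25 counts over the 5 FL-shAlpl libraries, 70, 18 and 8 in FL-shGFP and 10, 4 and 16 in NL-shGFP, and were not tested.

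Of the 6 lysosomal carriers, 3 were lower in FL-shAlpl over FL-shGFP and none was higher. Slc38a9 encodes the lysosomal arginine sensor that acts on mTORC1. Slc38a9 had 8.76, 6.98, 8.48, 5.64 and 7.62 CPM in FL-shAlpl, 12.7, 9.33, 12.98, 16.2 and 13.7 CPM in FL-shGFP and 13.6, 13.3, 13.8, 12.9 and 13.2 CPM in NL-shGFP. All FL-shAlpl libraries lay below all others, and FL-shGFP overlapped NL-shGFP. The log2 fold change was -0.79 ± 0.15 in FL-shAlpl over FL-shGFP, -0.044 ± 0.14 in FL-shGFP over NL-shGFP and -0.83 ± 0.15 in FL-shAlpl over NL-shGFP (adjusted p by edgeR = 0.00124, 0.822 and 0.00152).

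Slc36a4 (PAT4, a carrier of proline and tryptophan linked to mTORC1) had 9.20, 12.6, 8.63, 8.54 and 13.2 CPM in FL-shAlpl, 17.8, 14.7, 20.3, 23.5 and 19.2 CPM in FL-shGFP and 15.8, 14.98, 17.4, 18.4 and 15.04 CPM in NL-shGFP. Here too every FL-shAlpl library was below all others. It was lower both in FL-shAlpl over FL-shGFP (-0.87 ± 0.15, adjusted p by edgeR = 8.91e-04) and in FL-shAlpl over NL-shGFP (-0.65 ± 0.15, adjusted p by edgeR = 0.00922; 0.0533 with the most alike NL-shGFP libraries summed). Slc15a3 (PHT2, a carrier of histidine and peptides known from immune cells) had 7.38, 3.81, 2.18, 1.85 and 3.26 CPM in FL-shAlpl, 10.5, 5.54, 9.21, 16.2 and 7.12 CPM in FL-shGFP and 12.6, 13.3, 12.9, 12.3 and 3.61 CPM in NL-shGFP. FL-shAlpl was low apart from replicate 1, and NL-shGFP replicate 5 stood far below its group. The value was -1.39 ± 0.41 in FL-shAlpl over FL-shGFP (adjusted p by edgeR = 0.0179), and -1.13 without FL-shGFP replicate 4 (adjusted p by edgeR = 0.0546). Of 14 myeloid markers, 0 were higher and 7 lower in FL-shAlpl over FL-shGFP, and 7 were higher and 0 lower in FL-shGFP over NL-shGFP; their part in the Slc15a3 values was not tested. Exons of Tmem132a on the other strand cover 28.1% of the Slc15a3 exon length, and Tmem132a averaged 2.15 CPM in FL-shAlpl, 1.84 in FL-shGFP and 4.32 in NL-shGFP.

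Slc36a1 (PAT1, a proton-coupled carrier of small neutral amino acids of lysosomes and, in the intestine, of the brush border) had the highest FPKM of the lysosomal carriers. It had 54.5, 80.5, 63.4, 35.3 and 81.9 CPM in FL-shAlpl, 101, 90.7, 34.99, 128 and 33.4 CPM in FL-shGFP and 24.6, 25.8, 29.9, 28.5 and 31.2 CPM in NL-shGFP. FL-shGFP split into 3 high libraries and 2, replicates 3 and 5, close to NL-shGFP, and all libraries of both fatty liver groups were above NL-shGFP. The rise was 1.47 ± 0.34 in FL-shGFP over NL-shGFP (adjusted p by edgeR = 0.00287) and 1.17 ± 0.33 in FL-shAlpl over NL-shGFP (adjusted p by edgeR = 0.0254), and the second was lost in 8 of 28 alternatives, 5 of them without FL-shAlpl replicate 2 or 5 or without NL-shGFP replicate 1, 2 or 4 (edgeR adjusted p from 0.0523 to 0.0794). FL-shAlpl over FL-shGFP gave -0.30 ± 0.33 (95% interval -1.0 to 0.40, adjusted p by edgeR = 0.505).

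Slc15a4 (PHT1, the second lysosomal carrier of histidine and peptides) had 10.97, 9.86, 12.5, 14.3 and 10.3 CPM in FL-shAlpl, 9.07, 11.7, 11.1, 6.40 and 11.8 CPM in FL-shGFP and 14.4, 14.7, 16.4, 16.3 and 14.5 CPM in NL-shGFP. Both fatty liver groups were below NL-shGFP in every library. It was lower in FL-shGFP over NL-shGFP (-0.61 ± 0.16, adjusted p by edgeR = 0.00612), while -0.40 ± 0.16 in FL-shAlpl over NL-shGFP did not pass (adjusted p by edgeR = 0.0944). Slc38a7 (SNAT7, the lysosomal exit of glutamine) averaged 13.3 ± 1.99 CPM in FL-shAlpl, 11.2 ± 1.52 in FL-shGFP and 10.5 ± 1.08 in NL-shGFP (SD, n = 5) and was not called in any comparison, with values from 0.092 ± 0.13 in FL-shGFP over NL-shGFP to 0.33 ± 0.13 in FL-shAlpl over NL-shGFP (adjusted p by edgeR = 0.593 and 0.0968).

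Among the carriers of other or unfixed site, Slc6a8 and Slc43a3 were higher in both fatty liver groups. Slc6a8 encodes the creatine carrier. Slc6a8 had 128, 292, 206, 141 and 237 CPM in FL-shAlpl, 519.6, 535, 257, 591 and 172 CPM in FL-shGFP and 71.3, 72.4, 82.3, 82.8 and 65.4 CPM in NL-shGFP. Both fatty liver groups were above NL-shGFP in every library, and FL-shGFP replicates 3 and 5 fell in the FL-shAlpl range. The values were 2.47 ± 0.32 in FL-shGFP over NL-shGFP, -1.05 ± 0.30 in FL-shAlpl over FL-shGFP and 1.42 ± 0.31 in FL-shAlpl over NL-shGFP (adjusted p by edgeR = 5.35e-05, 0.0159 and 0.00589). Slc43a3, by sequence a relative of LAT3 and LAT4 but known as a carrier of purine nucleobases, had 2.26, 4.64, 7.25, 4.44 and 11.1 CPM in FL-shAlpl, 14.8, 14.8, 7.36, 25.9 and 5.46 CPM in FL-shGFP and 1.32, 0.897, 1.34, 2.04 and 0.512 CPM in NL-shGFP. All fatty liver libraries again lay above NL-shGFP. It was higher by 3.48 ± 0.51 in FL-shGFP and by 2.27 ± 0.49 in FL-shAlpl, each over NL-shGFP (adjusted p by edgeR = 1.39e-04 and 0.00628). FL-shAlpl over FL-shGFP gave -1.20 ± 0.46 and just missed the threshold (adjusted p by edgeR = 0.0528); it passed in 11 of 28 alternatives, among them those without FL-shAlpl replicate 5, FL-shGFP replicate 3 or 5, or NL-shGFP replicate 5 (edgeR adjusted p from 0.0185 to 0.0471).

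Slc1a4 (ASCT1, exchanger of alanine, serine and cysteine) had 42.5, 29.5, 37.02, 55.04 and 27.9 CPM in FL-shAlpl, 30.1, 24.01, 29.1, 22.3 and 54.3 CPM in FL-shGFP and 74.3, 74.5, 72.7, 74.8 and 88.4 CPM in NL-shGFP. NL-shGFP lay above all other libraries, and replicate 5 was the highest of both FL-shGFP and NL-shGFP. It fell by 1.27 ± 0.23 on the log2 scale in FL-shGFP and by 1.0 ± 0.23 in FL-shAlpl, each over NL-shGFP (adjusted p by edgeR = 5.35e-04 and 0.00745). The value of 0.26 ± 0.22 in FL-shAlpl over FL-shGFP was not called (adjusted p by edgeR = 0.375), and was 0.54 without FL-shGFP replicate 5 (adjusted p by edgeR = 0.0208). Slc7a15, which encodes a light chain that prefers aromatic amino acids, was scarce, with 0.782, 0.0693, 0.436, 0.417 and 0.0989 CPM in FL-shAlpl, 1.44, 0.973, 1.83, 1.01 and 1.02 CPM in FL-shGFP and 0.120, 0.424, 0.0654, 0.371 and 0.227 CPM in NL-shGFP. FL-shGFP was above all other libraries. It rose by 2.34 ± 0.58 in FL-shGFP over NL-shGFP and fell by 1.78 ± 0.55 on the log2 scale in FL-shAlpl over FL-shGFP (adjusted p by edgeR = 0.00457 and 0.0214), on 97 counts in the 5 FL-shAlpl libraries, 294 in FL-shGFP and 45 in NL-shGFP.

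Slc38a6, whose substrates are little known, had 4.46, 4.71, 5.07, 3.94 and 5.14 CPM in FL-shAlpl, 7.74, 6.81, 7.36, 7.65 and 7.04 CPM in FL-shGFP and 5.43, 4.71, 4.51, 4.48 and 6.94 CPM in NL-shGFP. FL-shGFP was above FL-shAlpl in every library, and NL-shGFP replicate 5 reached the FL-shGFP range. It was lower in FL-shAlpl over FL-shGFP (-0.65 ± 0.15, adjusted p by edgeR = 0.00397) and higher by 0.49 ± 0.15 in FL-shGFP over NL-shGFP (adjusted p by edgeR = 0.0133; 0.0559 with no filter on low counts). Slc38a10 averaged 86.2 ± 10.1 CPM in FL-shAlpl, 88.2 ± 3.90 in FL-shGFP and 101 ± 2.88 in NL-shGFP (SD, n = 5). Every FL-shGFP library was below every NL-shGFP library, but the value of -0.20 ± 0.083 was not called (adjusted p by edgeR = 0.0577). Slc7a2 (CAT2, a second carrier of cationic amino acids) averaged 1.58 ± 0.861 CPM in FL-shAlpl, 2.72 ± 1.75 in FL-shGFP and 2.91 ± 1.18 in NL-shGFP and was not called in any comparison (edgeR adjusted p of at least 0.201).

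Slc7a11 (xCT), the cystine and glutamate exchanger, is a well-known target of ATF4, the transcription factor of the amino acid response, and its upstream sequence at chr3:50443614-50443733 on the minus strand (RefSeq, GRCm38.p6, 5′ to 3′) is shown because it holds that factor's element more than once. Capitals mark TGATGNAA on either strand, the C/EBP-ATF response element.
Slc7a11: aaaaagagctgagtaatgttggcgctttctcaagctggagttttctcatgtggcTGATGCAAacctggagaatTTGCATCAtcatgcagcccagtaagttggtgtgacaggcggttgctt
The letters stand at -66 and -47 from the start. TGATGNAA was in 3.97% of the 32851 windows and in 4 of the 43 windows of carriers, those of Slc1a4 and Slc7a11 and 2 of Slc7a7. A window of Slc7a7 also held it more than once, at -141 and -1. The antioxidant response core TGACNNNGC was in 12.4% of all windows and in 8 of the 43. Those 8 were windows of Slc36a1, Slc38a2, Slc43a1, Slc6a9, Slc7a1 and Slc7a6, and not of Slc7a11. RNA of Slc7a11 was 26.6, 6.84, 7.72, 9.20 and 3.12 CPM in FL-shAlpl, 11.1, 8.09, 13.6, 21.8 and 12.8 CPM in FL-shGFP and 14, 12.5, 9.03, 9.85 and 6.91 CPM in NL-shGFP. The groups overlapped, and FL-shAlpl replicate 1, the library high in small-intestine markers, stood far above its group. No comparison was called, with 0.37 ± 0.43 in FL-shGFP over NL-shGFP and -0.33 ± 0.43 in FL-shAlpl over FL-shGFP (adjusted p by edgeR = 0.510 and 0.577), but without FL-shAlpl replicate 1 the second was -1.0 (adjusted p by edgeR = 0.0310).

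**Figure D4:**
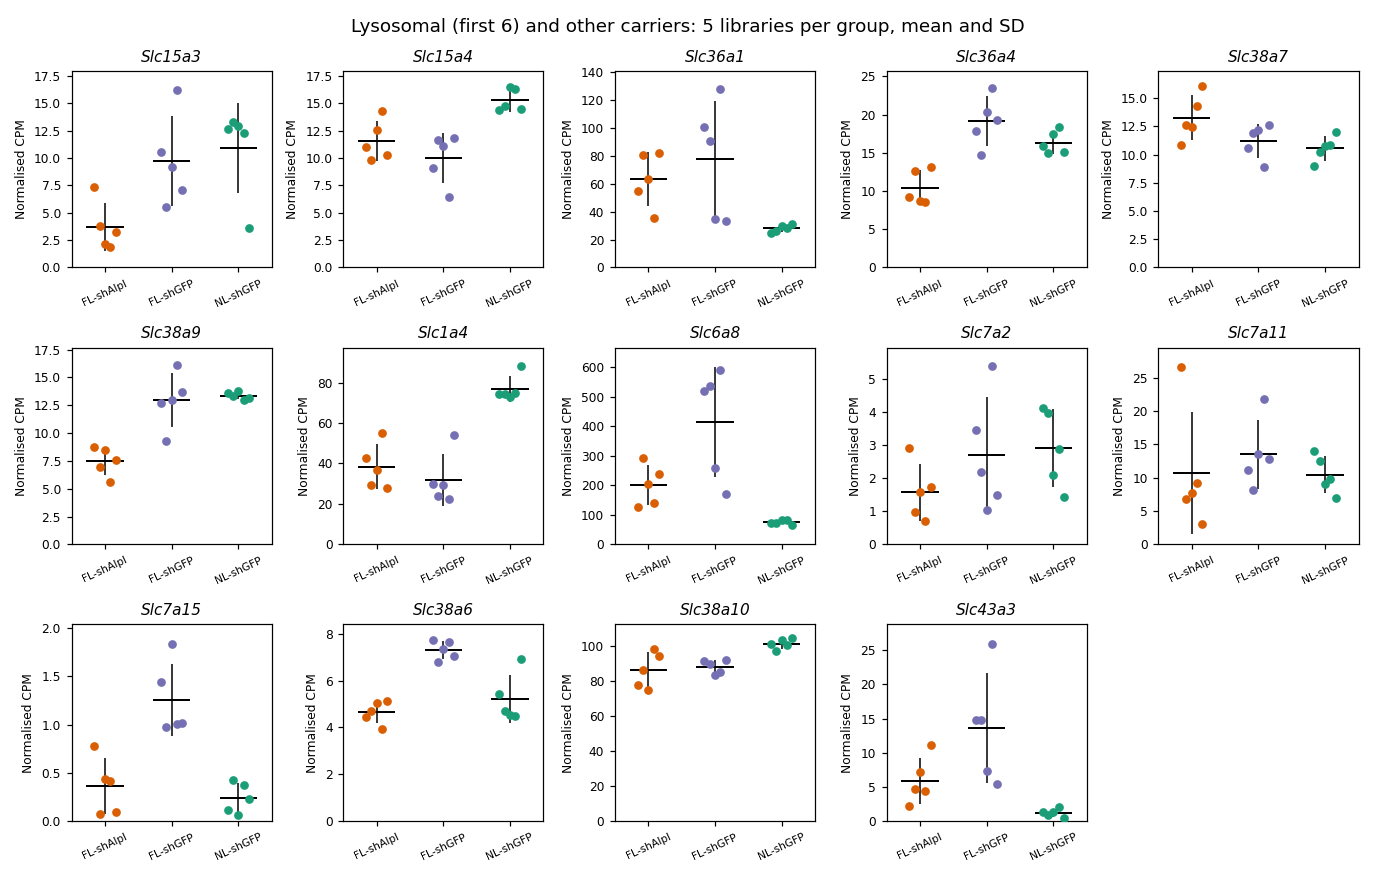
Normalised CPM of the 6 lysosomal carriers and the 8 carriers of other or unfixed site, with each library as a point, the group mean as a bar and the SD as a line (5 libraries per group). FL-shAlpl stands below both other groups for Slc36a4 and Slc38a9, and FL-shGFP replicates 3 and 5 stand apart from the other 3 for Slc36a1 and Slc6a8.

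FL-shAlpl over NL-shGFP changes diet, liver condition and shRNA at once. By edgeR at an adjusted p below 0.05, 15 of the 36 tested carriers were called, 8 higher and 7 lower. That is 41.7%, 22.2% higher and 19.4% lower, against 17.4% of all genes tested, 9.31% higher and 8.12% lower. The libraries did not overlap for 8 carriers above and 7 below, against 7.54% and 7.01% of all genes, 14.6% in either direction. Scaled by library totals alone, which moves the median of all genes by 0.14 in this comparison, the split was 11 higher and 6 lower. The higher carriers were Slc6a14, Slc6a8, Slc3a1, Slc36a1, Slc7a9, Slc1a1, Slc43a3 and Slc6a20a, 5 of them apical. The lower ones were Slc1a5, Slc1a4, Slc7a6, Slc36a4, Slc15a3, Slc43a1 and Slc38a9; with the most alike NL-shGFP libraries summed, Slc15a3 did not pass (adjusted p by edgeR = 0.0990), and with library totals alone Slc1a5 did not (adjusted p by edgeR = 0.107). The apical median was 1.37 and the basolateral -0.071, against 0.052 for all genes tested. Slc7a9 was 1.89 ± 0.38 and Slc3a1 1.25 ± 0.29 (adjusted p by edgeR = 0.00401 and 0.00854) in this comparison.

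**Figure D5:**
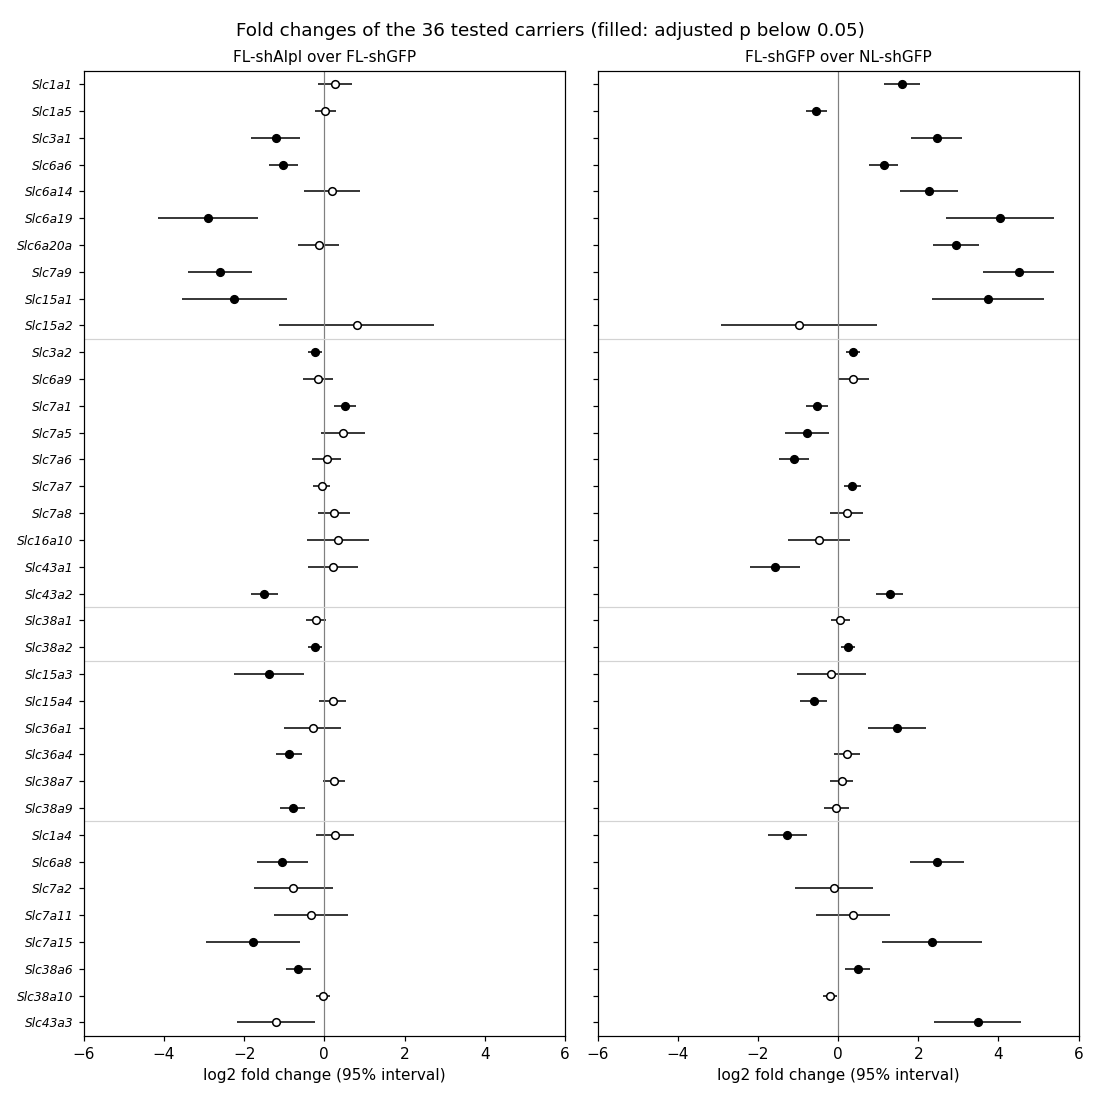
Log2 fold changes with 95% intervals from edgeR for the 36 tested carriers by role, FL-shAlpl over FL-shGFP on the left and FL-shGFP over NL-shGFP on the right; filled points passed an adjusted p of 0.05. FL-shGFP serves in both panels, as the lower group of the left ratio and the upper group of the right one, so the panels are not independent.

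Levels of different genes were compared per length, in FPKM as deposited (mean of 5 libraries). Slc6a14 ranked first of the 39 in every group, with 259 FPKM in FL-shAlpl, 215 in FL-shGFP and 43.8 in NL-shGFP. Slc6a8 had rank 2 in both fatty liver groups (40.1 FPKM in FL-shAlpl and 76.8 in FL-shGFP) and rank 8 in NL-shGFP (13.7 FPKM), where Slc1a5 had rank 2 (42.4 FPKM). The order of the apical carriers changed between groups: Slc15a1 had rank 13 in FL-shAlpl, 6 in FL-shGFP and 20 in NL-shGFP, and Slc7a9 had rank 17, 7 and 27 in the same order. Slc3a1 had more FPKM than its light chain Slc7a9 in all groups, 13 against 3.67 in FL-shAlpl, 27.7 against 20.5 in FL-shGFP and 4.93 against 0.881 in NL-shGFP. The Slc3a1 values may hold reads of Prepl, which overlaps 26.5% of its exon length. In NL-shGFP Prepl averaged 32.7 CPM and Slc3a1 11.8 CPM. The share of such reads was not tested. Even at its highest, in FL-shGFP, Slc6a19 reached 3.38 FPKM, below the 21.7 FPKM of Slc15a1. The heavy chain Slc3a2 stood above each of the basolateral light chains Slc7a5, Slc7a6, Slc7a7 and Slc7a8 in every group, at 18.5, 20.5 and 15.4 FPKM against at most 14.6, 14.4 and 10.9 FPKM, those of Slc7a7.

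Genes of the same pathways were counted by list, and each one named passed edgeR's adjusted p of 0.05 in the comparison given. Each count is to be read against all genes tested, of which 46.7% were called in FL-shGFP over NL-shGFP and 36% in FL-shAlpl over FL-shGFP. Of 19 tested peptidases, which free the amino acids and peptides that the carriers take up, 13 were higher and 2 lower in FL-shGFP over NL-shGFP, with a median of 1.26. The 4 with the smallest p were the brush border or surface enzymes Ace (2.19 ± 0.27), Xpnpep2 (1.59 ± 0.21), Mep1b (2.98 ± 0.43) and Enpep (3.84 ± 0.62). In FL-shAlpl over FL-shGFP 2 peptidases were higher and 4 lower, led by Ggt1, the gamma-glutamyltransferase that starts glutathione breakdown (-2.44 ± 0.36, adjusted p by edgeR = 3.21e-04). Slc9a3, the sodium-proton exchanger of the brush border, was at 4.05 ± 0.43 in FL-shGFP over NL-shGFP and -2.53 ± 0.40 in FL-shAlpl over FL-shGFP (adjusted p by edgeR = 1.58e-05 and 5.22e-04). Of 8 tested further amino acid carriers, 2 were higher and 2 lower in FL-shGFP over NL-shGFP, among them the lysosomal cystine exporter Ctns (0.74 ± 0.16) and the glutamate carrier Slc1a2 (-2.24 ± 0.50), and 1 higher and 1 lower in FL-shAlpl over FL-shGFP. Of 12 tested mitochondrial carriers, 3 were higher and 4 lower in FL-shGFP over NL-shGFP, and 5 higher and 1 lower in FL-shAlpl over FL-shGFP, where Sfxn1, the serine carrier, was at 0.82 ± 0.17.

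Of 33 tested genes of amino acid sensing by mTORC1, 7 were higher and 2 lower in FL-shGFP over NL-shGFP, and 3 higher and 5 lower in FL-shAlpl over FL-shGFP, a smaller share called than of all genes in both comparisons. Castor2, of the family of cytosolic arginine sensors, was 1.72 ± 0.29 and -1.34 ± 0.29 in these comparisons, and Sesn1, of the leucine sensor family, was -1.36 ± 0.26 in FL-shAlpl over FL-shGFP (adjusted p by edgeR = 3.43e-04, 0.00302 and 0.00173). Of 20 tested genes of the amino acid response, 2 were higher and 7 lower in FL-shGFP over NL-shGFP. In FL-shAlpl over FL-shGFP, 6 were higher and 1 lower. Taken in either direction, these shares were close to the 46.7% and 36% called of all genes tested. Pycr1, of proline synthesis, was -1.66 ± 0.14 and 0.61 ± 0.14, and Cth, of cysteine synthesis, -0.68 ± 0.13 and 0.88 ± 0.13, in FL-shGFP over NL-shGFP and in FL-shAlpl over FL-shGFP. Ddit4, an inhibitor of mTORC1 induced by stress, went the other way, at 1.21 ± 0.14 and -1.12 ± 0.14 in the same order (edgeR adjusted p of at most 0.00365 for these 6 values).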

How the data were processed

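RNA of colonic crypts was column-purified and enriched for mRNA, per the labels' protocols, in 5 samples a group; the labels do not say that these were separate animals, so p-values measure the spread between the samples. Reads were aligned with HISAT2, per the submitters' processing notes; its version, the counter, genome build, annotation and strand setting were not given in the sources used here. Raw counts of reads per gene were deposited by the authors, with FPKM values of the same reads. Counts of 32939 genes were filtered by filterByExpr (17404 kept) and tested in edgeR 4.0.16 (R 4.3.3): TMM scaling, robust quasi-likelihood fit on all 15 samples by group, 3 comparisons, Benjamini-Hochberg adjustment over all genes tested, threshold 0.05. Standard errors are the log2 fold change divided by the square root of F; the script was tested on simulated data. FPKM served to compare genes and, with pseudocounts of 1 and 0.1, in limma 3.58.1. Alternatives, 28 a comparison, were other scalings (RLE, totals, upper quartile), other filters (none; 1 CPM in 5 samples), DESeq2 1.42.0, limma-voom, the FPKM fits, 2 groups only, the replicate number as a block, mitochondrially encoded genes left out, NL-shGFP replicates 1 and 2, and 3 and 4, summed, and each of 15 samples left out. Those NL-shGFP libraries were the most alike: the median per-gene chi-square of their counts was 2.56 and 1.55, against 3.90 to 12.6 for other NL-shGFP pairs and, for sampling noise alone, 0.455, or 0.910 if 2 counts stand for 1 molecule. They differed by more than either, which technical repeats may too; they were kept apart as labelled, with the sums as the alternative. Of counts from 1 to 12, 72.4% to 77.2% a library were even, so counting intervals do not hold and none is given.

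Values per sample are given for carriers called in FL-shGFP over NL-shGFP or FL-shAlpl over FL-shGFP with a mean of at least 1 CPM in a group, up to 5 a role by size of change, and for the carrier of highest FPKM in each role; of other lists, up to 4 genes of smallest p are named, and Cltrn in any case. Slc7a11 falls outside this rule and was chosen for values per sample after they were seen. 1 further gene that this rule names is not reported here. The carriers, roles, marker lists and pathway lists were chosen with earlier results of these data known.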

Additional observations from a re-analysis of the deposited data

Results flagged for a closer look

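Of 108 sets of 5 libraries (36 carriers in 3 groups), 11 had a highest or lowest library set apart from the other 4 by Dixon's criterion. Chance alone gives about 1 in 20 sets if values are normal and sets independent. CPM need not be normal and the carriers share the same libraries, so that rate is no test of these 11. In NL-shGFP, replicate 5 was the library set apart in all 5 cases. It had 0.768 CPM of Slc7a9 against 2.75 to 3.30 in the other 4, 0.114 CPM of Slc15a2 against 10.8 to 14.7, 3.41 CPM of Slc7a8 against 5.61 to 5.89, 3.61 CPM of Slc15a3 against 12.3 to 13.3, and 88.4 CPM of Slc1a4 against 72.7 to 74.8. In FL-shGFP, replicate 5 had 54.3 CPM of Slc1a4 against 22.3 to 30.1 and 5.41 CPM of Slc43a1 against 1.87 to 2.56. Replicate 1 of that group had 6.31 CPM of Slc6a20a against 3.51 to 4.14, and replicate 4 had 33.5 CPM of Slc43a2 against 24.7 to 26.6. In FL-shAlpl, replicate 1 had 26.6 CPM of Slc7a11 against 3.12 to 9.20, and replicate 4 had 12.02 CPM of Slc6a9 against 6.56 to 7.64.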

How the results depend on the processing

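Each comparison had 28 alternatives, except that Slc7a15 had 27, since the filter of 1 CPM in 5 samples drops it. No log2 fold change of a called carrier changed sign in any alternative that tested it. Calls kept in every alternative that tested the gene, Slc7a15 included, were 19 of 24 in FL-shGFP over NL-shGFP, 12 of 15 in FL-shAlpl over FL-shGFP and 11 of 15 in FL-shAlpl over NL-shGFP. With 1 library left out, 22 to 26, 12 to 18 and 14 to 16 carriers were called in these comparisons, and 6841 to 8816, 4635 to 7158 and 1979 to 3523 of all genes. The lowest of these, 1979 against 3035 genes in FL-shAlpl over NL-shGFP, was without FL-shAlpl replicate 2; in that comparison limma-voom with quality weights called 5259 genes and summing the alike NL-shGFP libraries left 1340, and the cause was not tested. Summing them ended the calls of Slc7a5, Slc7a7, Slc38a2 and Slc38a6 in FL-shGFP over NL-shGFP (adjusted p by edgeR = 0.0571, 0.0525, 0.117 and 0.0858), of Slc3a2 and Slc38a2 in FL-shAlpl over FL-shGFP (0.0630 and 0.0671) and of Slc15a3, Slc36a1 and Slc36a4 in FL-shAlpl over NL-shGFP (0.0990, 0.120 and 0.0533). Leaving out 1 library added calls of Slc38a10 (FL-shAlpl replicate 1, 3 or 4) and Slc6a9 (FL-shAlpl replicate 4) in FL-shGFP over NL-shGFP, and of Slc7a7 (FL-shAlpl replicate 1), Slc15a4 (FL-shGFP replicate 4) and Slc38a10 (FL-shAlpl replicate 4) in FL-shAlpl over NL-shGFP, with adjusted p by edgeR from 0.0100 to 0.0459. With library totals alone, 4521 genes were higher and 2347 lower in FL-shGFP over NL-shGFP, against 4376 and 3752; in FL-shAlpl over NL-shGFP 2783 were higher and 930 lower, against 1621 and 1414. With the replicate number as a block, 24, 13 and 14 carriers and 7295, 5074 and 2457 genes were called; Slc3a2 and Slc38a2 did not pass in FL-shAlpl over FL-shGFP (adjusted p by edgeR = 0.0664 and 0.0744), nor Slc36a1 in FL-shAlpl over NL-shGFP (0.0585). Same-numbered samples deviated together, at a correlation over 0.1, in 0 of 5 pairs of FL-shAlpl and FL-shGFP. The count was 0 of 5 for FL-shAlpl and NL-shGFP and 3 of 5 for FL-shGFP and NL-shGFP. So few pairs cannot settle whether the replicate numbers pair the samples. Without mitochondrially encoded genes 25, 15 and 15 carriers were called. Slc7a15 had few counts, and Slc38a3, Slc38a4 and Slc38a5 had too few to pass the filter and were not tested.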
